A study of Gallus gallus with 14 samples.

Results

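Mitogen-activated protein (MAP) kinase cascades pass a signal along a chain of protein kinases, each of which phosphorylates the next, and phosphatases end the signal. In lymphocytes they carry signals from antigen, chemokine and cytokine receptors, and their p38 and JNK branches respond to cell stress. The chicken expressed sequence tag (EST) array carried 3 clones that the study named as genes of this system, out of 12858 clones printed. MAP2K3 (clone pgn1c.pk003.c12) is a kinase that phosphorylates and activates p38. MAP4K4 (clone ChEST104D11) is an upstream kinase at the head of the JNK branch, and its clone was named by weak similarity to a dog protein. DUSP1 (clone pat.pk0073.f6.f) is MAP kinase phosphatase-1, which removes phosphate from active MAP kinases and is known as an immediate early gene. The clones were taken from a list of 47 clones that the study drew from the comparison of DKO-R with DKO-S cells. The names rest on the annotation of the clones, and all 3 symbols are genes of the current chicken annotation. The files name no genome build, so no coordinates are given.

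The DKO-S line dies when clathrin is lost, and DKO-R is a subline of it that tolerates the loss better. Both lines lack their own clathrin heavy chain genes, which were deleted, and the protein comes from a transgene under a Tet-Off promoter that doxycycline (DOX) represses. DT40 is the parental chicken pre-B cell line, with its own clathrin genes and no such transgene. Each line had 2 cultures, A and B, from which DOX and no DOX extracts were prepared. The dose and time of DOX for these RNA extracts were not given, and the clathrin clone itself was not analysed here, because the files give clone names without genes.

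RNA of 7 pairs of extracts was hybridised to 14 arrays. In 6 pairs the DOX and no DOX extracts of 1 culture shared an array. The seventh pair set DKO-R directly against DKO-S, culture A, without DOX. Each pair was hybridised in both dye orientations, so that each extract was labelled with Cy5 on 1 array and with Cy3 on the other. On 12 arrays between 55.1% and 72.0% of the spots reached a confidence of 0.30, the limit used here. The other 2 arrays, DKO-S culture A with DOX in Cy5 and DKO-S culture B with DOX in Cy3, kept 2.1% and 22.7% of their spots and were left out of the tests. On the DOX arrays used for the tests, each DKO-S extract was therefore measured in 1 dye only.

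The labels of the direct arrays and of the DOX arrays disagreed on which line is which. On the direct pair, 15 clones of the array were at least 2-fold apart whichever dye each line carried. On the DOX arrays, 56 of 56 comparisons of these clones between DKO-R and DKO-S channels of the same dye had the opposite sign. Line names below follow the labels, and the direction of every difference between DKO-R and DKO-S is unsettled between the array sets. If the DOX arrays carry the exchanged labels, the values given for DKO-R against DT40, and the DOX responses of both lines, belong to the other line.

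All 3 clones gave a measured signal. Each was printed as 2 spots, and on the 12 strong arrays both spots of each clone passed the confidence limit. The lowest confidence on these arrays was 0.35 for MAP2K3, 0.67 for MAP4K4 and 0.48 for DUSP1. The 2 spots of a clone on 1 array differed in log2(Cy5/Cy3) by a median of 0.25 for MAP2K3, 0.54 for MAP4K4 and 0.25 for DUSP1. The widest gap between spots was 0.57 for MAP2K3, 1.23 for MAP4K4 and 1.14 for DUSP1. MAP4K4 was therefore the least repeatable of the 3 within an array by the median of this ratio, although its confidence was the highest. The ratio does not show gaps in intensity, which enter the levels below. On the DKO-R culture B array with DOX in Cy3, the MAP2K3 spots read 3706 and 500 in Cy3. In Cy5 they read 3123.5 and 535, and the dimmer spot had a confidence of 0.35. On the weak array of DKO-S culture A, no spot of the 3 clones passed. On that of culture B, centred log2(Cy5/Cy3) was -0.21 for MAP2K3, 2.83 for MAP4K4 (1 spot) and 2.00 for DUSP1.

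The colour ratio of MAP4K4 and DUSP1 followed the dye, and that of MAP2K3 on the direct arrays followed the cell line. The ratio is log2(Cy5/Cy3) less the median of the array's spots, so that 0 is the typical clone. Where the DKO-R extract of the direct pair carried Cy5, it was 1.04 for MAP2K3, 3.07 for MAP4K4 and 1.99 for DUSP1. Where it carried Cy3, the ratio was -1.05 for MAP2K3, 3.02 for MAP4K4 and 1.90 for DUSP1. The MAP2K3 ratio changed sign when the dyes were exchanged. The MAP4K4 and DUSP1 ratios did not. MAP4K4 stood at the 99.8 and 99.9 percentiles of all clones on these arrays.

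**Figure D1:**
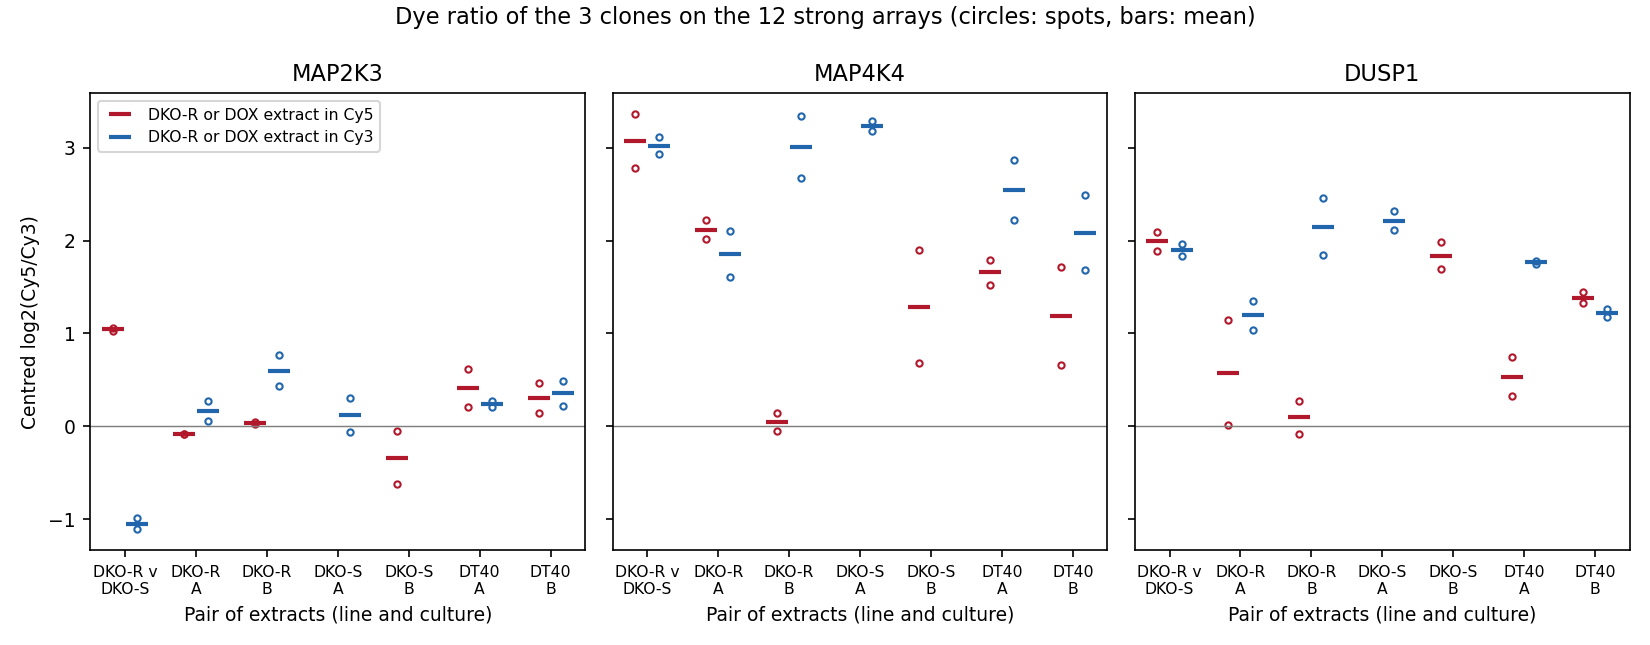
Centred log2(Cy5/Cy3) of MAP2K3, MAP4K4 and DUSP1 on the 12 strong arrays, by pair of extracts and dye orientation (red, the DKO-R or DOX extract in Cy5; blue, in Cy3). Circles are single spots and bars the mean of both. MAP2K3 changed sign with orientation in the DKO-R v DKO-S pair (1.04 and -1.05), whereas every MAP4K4 and DUSP1 bar lies above 0.

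The same lean toward Cy5 was present where both dyes carried RNA of 1 line. In MAP4K4 the mean of both orientations, in which a difference between the extracts cancels, was 1.99 and 1.53 in the DKO-R pairs of cultures A and B, against 2.10 and 1.64 in the DT40 pairs. Over these 4 pairs it averaged 1.81 ± 0.27 (SD, n = 4 pairs), rank 7 of 6490 clones. In DUSP1 it was 0.89 and 1.12 in the DKO-R pairs, against 1.15 and 1.30 in the DT40 pairs, with an average of 1.11 ± 0.17 (SD, n = 4 pairs) and rank 47. In MAP2K3 it was 0.04 and 0.32 in the DKO-R pairs, against 0.33 and 0.33 in the DT40 pairs, with an average of 0.25 ± 0.14 (SD, n = 4 pairs) and rank 550. The median over all clones was -0.01, and 65 clones (1.00%) reached 1. MAP4K4 and DUSP1 were thus among the clones with the strongest dye effect on the array. The list that they come from held 28 of these 65 clones, out of 44 listed clones with a value. On the direct pair the dye effect was larger again for MAP4K4, at 3.05 (rank 9 of 7245), and for DUSP1, at 1.94 (rank 55 of 7245). For MAP2K3 it was 0.00 there.

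**Figure D2:**
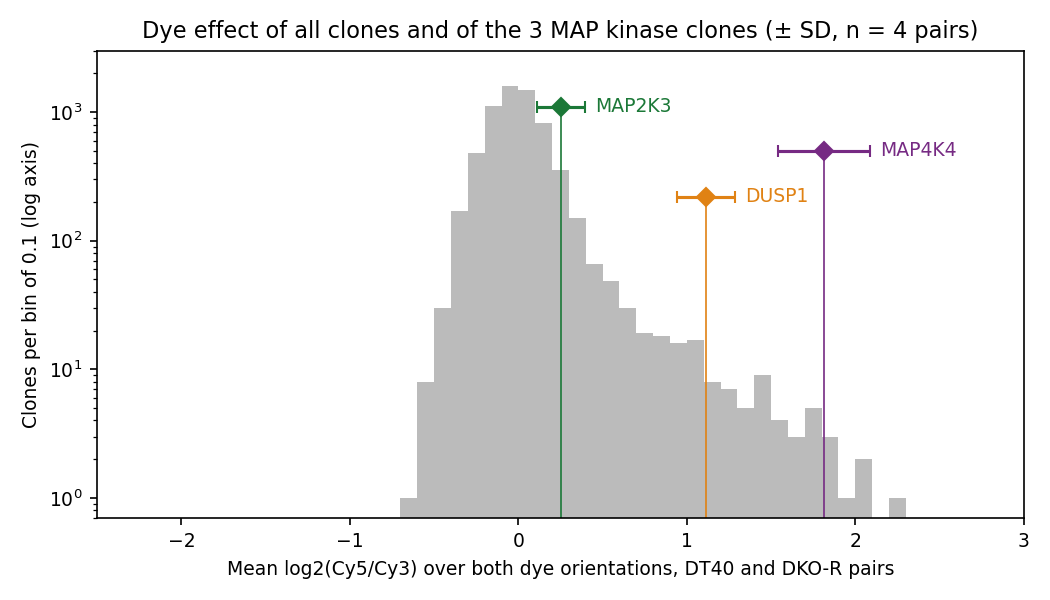
Number of clones (log axis) by dye effect, the mean log2(Cy5/Cy3) over both orientations of the DKO-R and DT40 pairs. Diamonds with bars are the mean ± SD over 4 pairs for MAP2K3 (0.25 ± 0.14), DUSP1 (1.11 ± 0.17) and MAP4K4 (1.81 ± 0.27); MAP4K4 and DUSP1 lie in the right tail.

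On single arrays the ratio carries both the dye effect and the difference between the extracts. The MAP4K4 ratio ranged from 0.05 on the DKO-R culture B array with DOX in Cy5 to 3.24 on the DKO-S culture A array with DOX in Cy3. The DUSP1 ratio ranged from 0.10 to 2.21 on the same arrays. Excluding the direct pair, MAP2K3 stayed between -0.34 and 0.60 on the strong arrays. The remaining strong arrays of DKO-R gave 1.86, 3.01 and 2.12 for MAP4K4 and 1.19, 2.15 and 0.58 for DUSP1, while DKO-S culture B with DOX in Cy5 gave 1.29 for MAP4K4 and 1.84 for DUSP1. The DT40 arrays gave 1.19 to 2.54 for MAP4K4 and 0.53 to 1.77 for DUSP1. Spots printed within 2 rows and 2 columns of MAP4K4 had medians of log2(Cy5/Cy3) between -0.48 and 0.70, against -0.05 to 3.36 in the MAP4K4 spots themselves. For DUSP1 the neighbours lay between -0.42 and 0.33, against -0.08 to 2.46 in its own spots.

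Averaged over both orientations of the direct pair, MAP2K3 was the 1 clone of the 3 with the same sign in both orientations and a mean away from 0. Its log2(DKO-R/DKO-S) was 1.04 in the Cy5 orientation of DKO-R and 1.05 in the Cy3 orientation. The mean was 1.05 ± 0.18 (SE in limma), a 2.07-fold higher signal in the DKO-R extract as labelled. With the labels turned to match the DOX arrays it would be 2.07-fold higher in DKO-S. The SEs given for the direct pair come from the spread of the DOX responses between cultures of DKO-R and of DT40. The direct comparison is 1 pair of extracts and adds no spread of its own, so they do not measure its replication. The MAP2K3 mean stood at the 99.7 percentile of 7245 clones. For MAP4K4 the values were 3.07 and -3.02 in the same order, with a mean of 0.03 ± 0.41. For DUSP1 they were 1.99 and -1.90, with a mean of 0.05 ± 0.29. In both clones the orientations gave ratios of nearly equal size and opposite sign, so that the mean was close to 0. These values have no test, because the list of clones was chosen on this contrast.

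The other signalling genes of the list split in the same way on the direct pair. This set held 7 further clones: PNRC1 (2 clones), a nuclear receptor coactivator; KIDINS220, a membrane substrate of protein kinase D; PSPH, phosphoserine phosphatase; CXCR4, the receptor of the chemokine SDF-1; DDIT3, a stress-induced transcription factor phosphorylated by p38; and NFKBIE, an inhibitor of NF-kappaB. KIDINS220, PSPH, CXCR4 and NFKBIE had opposite signs in the 2 orientations, as did MAP4K4 and DUSP1, which makes 6 of 10 clones. Only 44.8% of all clones on the array kept their sign, so this count is near the share over the array. Both PNRC1 clones and DDIT3 kept their sign, as did MAP2K3. Their means were 1.32 and 1.13 for PNRC1 and 1.16 for DDIT3, and that of MAP2K3 was 1.05. Over the whole list, 37 of the 46 clones measured on both direct arrays had opposite signs, and 7 were at or above 1 in both orientations. Over all 7245 clones, 44.8% had the same sign in both orientations and 13 were at or above 1 in both. MAP2K3 belonged to these 13. Its list was drawn on this contrast, so its place there and above its library plate was favoured by that choice and is description only. Of the 202 other clones from its library plate that were measured on both arrays, none reached 1 in the mean of both orientations, and their median was 0.01. The library plate of DUSP1 gave 15 other clones, of which none reached 1.

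MAP2K3 had its lowest levels in the DKO-R extracts of the DOX arrays, below both other lines, a direction opposite to that of the study's list. There, the level of a clone is its log2 intensity per extract after normalisation within and between arrays, and levels of different clones are not compared. In DKO-R extracts with DOX, MAP2K3 was 10.96 in culture A and 10.60 in culture B, and in those without DOX it was 11.09 and 10.87. In DKO-S extracts with DOX it was 11.43 and 11.75, and without DOX 11.55 and 12.15. In DT40 extracts with DOX it was 11.73 and 12.05, and without DOX 11.68 and 12.06. All 4 DKO-R extracts lay below all 8 extracts of DKO-S and DT40, whose ranges overlapped. How many clones of the array separated in this way was not counted. Between DKO-R and DT40 without DOX, 21.5% of all clones were called, so such a separation need not be particular to MAP2K3. The culture B levels of DKO-R include a faint MAP2K3 spot, of confidence 0.35, on the array with DOX in Cy3. That spot lowers both of them, and levels per extract without it were not computed. On the other culture B array, MAP2K3 was 11.01 with DOX (Cy5) and 10.94 without DOX (Cy3). In order of mean level over 4 extracts, DKO-R came at 10.88 ± 0.21, DKO-S at 11.72 ± 0.32 and DT40 at 11.88 ± 0.20 (SD, n = 4 extracts from 2 cultures). DKO-S and DT40, the neighbours at the top of this order, differed by less than their spread.

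**Figure D3:**
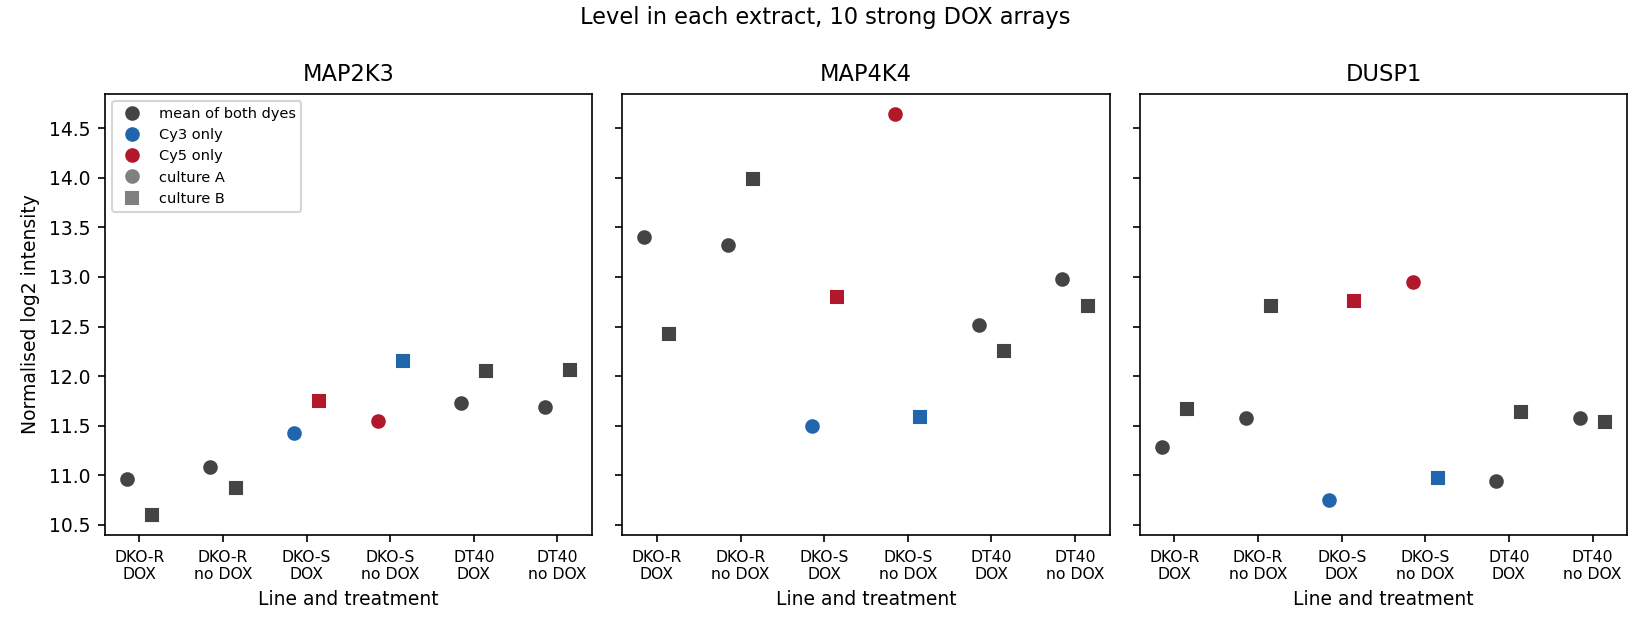
Normalised log2 intensity of the 3 clones in each of 12 extracts, by line and treatment (circles, culture A; squares, culture B; grey, mean of both dyes; blue and red, Cy3 or Cy5 only). MAP2K3 lies between 10.6 and 11.1 in DKO-R and above 11.4 in DKO-S and DT40, while DKO-S values of MAP4K4 and DUSP1 separate by dye.

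MAP2K3 was called lower in DKO-R than in DT40. No DOX array held more than 1 line, so every difference in level between lines is also a difference between sets of arrays. These cannot be told apart. Without DOX the log2 difference was -0.90 ± 0.29 (SE), or 1.86-fold lower in DKO-R, with an adjusted p of 0.0764 in limma after Benjamini-Hochberg adjustment over all 6490 clones tested. The limit for a call was an adjusted p of 0.15. With a limit of 0.05 it would not have been called. This comparison was rich in calls, with 21.5% of all clones called, and 1 of the 3 MAP kinase clones was among them. Compared within the same dye, culture and treatment, MAP2K3 was lower in DKO-R in 8 of 8 comparisons with DT40, by log2 differences between -1.46 and -0.40. Those without DOX ran from -1.24 to -0.40. The values -1.44 in culture B with DOX (Cy3) and -1.15 in culture B without DOX (Cy5) include the faint spot. How many clones of the array had 1 sign in all 8 was not counted. The count of 8 and the same-dye counts below rest on 2 cultures of each line. They mix dyes and treatments, so the comparisons are not independent. Leaving out any 1 of the DKO-R or DT40 cultures ended the call, with adjusted p between 0.257 and 0.439 and differences between -1.09 and -0.71. At a stricter spot confidence of 0.60, which leaves out the faint spot, the difference was -0.53 with an adjusted p of 0.324. Of the 4 cell type markers, CCL17, a dendritic cell chemokine, was called in the same comparison, higher in DKO-R by 0.83 (adjusted p = 0.0880, limma). Its part in the MAP2K3 difference was not tested.

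Set against DKO-S within the same dye, the DKO-R level of MAP2K3 was the lower one in 4 of 4 comparisons of the DOX arrays. These gave -0.50 in culture A with DOX, -0.74 in culture B with DOX, -0.44 in culture A without DOX and -1.21 in culture B without DOX. With the labels turned to match the direct pair these values would be positive. MAP2K3 was among the 15 clones at least 2-fold apart on the direct pair. Its 4 comparisons are thus part of the 56 of opposite sign given above, and not a separate result. With DOX, the log2 difference of MAP2K3 in the fit was -0.81 ± 0.29 (SE), 1.75-fold lower in DKO-R, with an adjusted p of 0.192 in limma. That missed the limit, in a comparison in which 6.23% of 6102 clones were called, and none of the 3 MAP kinase clones. The 95% interval of the difference was -1.44 to -0.17. The faint spot of DKO-R culture B enters this fit but none of the 4 same-dye comparisons. Without DOX, the direct pair of culture A gave 1.05, and the DOX arrays gave -0.44 in culture A and -1.21 in culture B, of opposite sign. With culture as a random block, the difference with DOX was called, at an adjusted p of 0.144 in limma. The immunoglobulin J chain, a B cell product, moved with this comparison. Its level on the DOX arrays was 10.50 to 10.90 in DKO-R, 12.79 to 13.39 in DKO-S and 10.67 to 10.73 in DT40. With DOX the DKO-R level was 5.74-fold below that of DKO-S (adjusted p = 0.00201), and without DOX 5.14-fold higher in DKO-S than in DT40 (adjusted p = 0.00211, limma). On the direct pair its mean log2(DKO-R/DKO-S) was 2.89. Its part in the MAP2K3 differences was not tested.

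**Figure D4:**
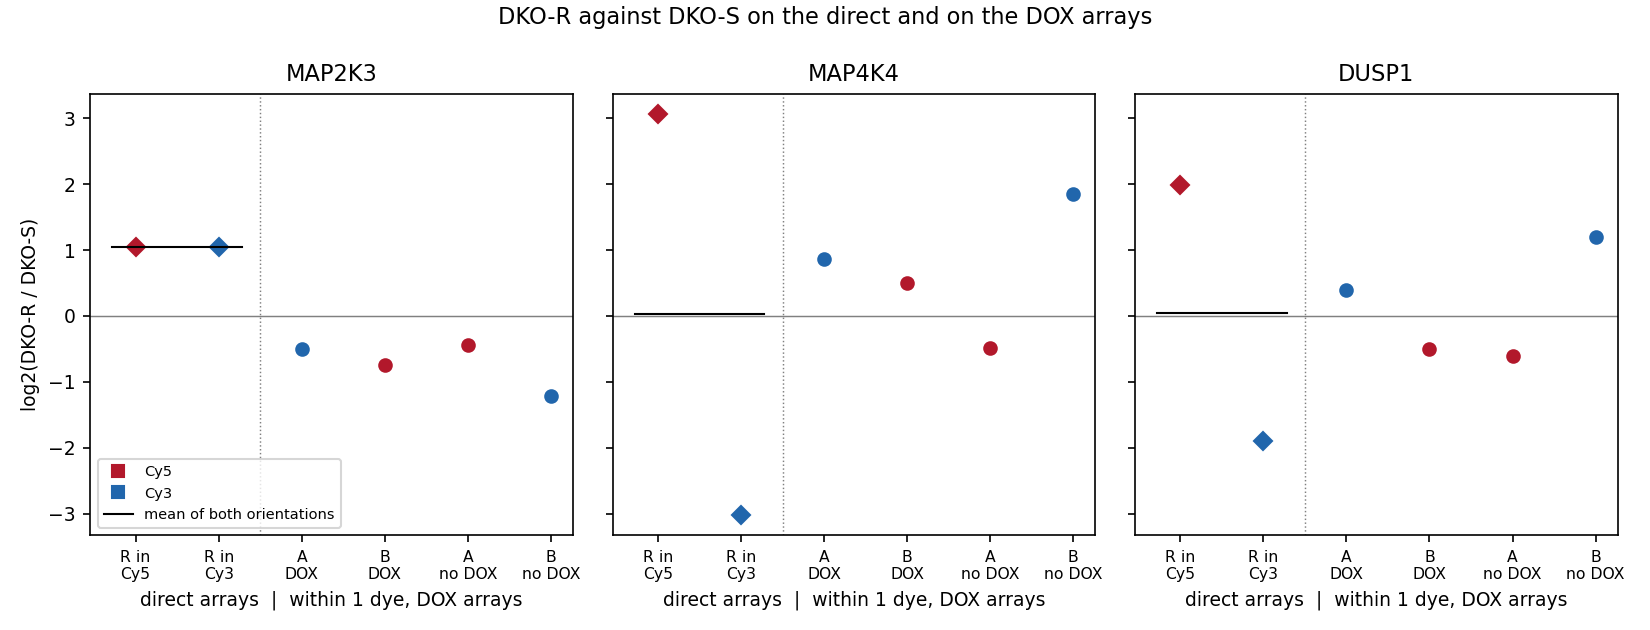
log2(DKO-R/DKO-S) of the 3 clones. Left of the dotted line are the direct arrays (diamonds; R in Cy5 or Cy3 marks the dye of DKO-R; line, mean of both), and right of it the same-dye comparisons on the DOX arrays by culture and treatment (red, Cy5; blue, Cy3). MAP2K3 is near 1.05 in both direct orientations and between -1.21 and -0.44 on the DOX arrays, while MAP4K4 and DUSP1 are of opposite sign in the direct orientations.

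MAP4K4 was not separated between lines on the DOX arrays. In DKO-R extracts with DOX it was 13.40 and 12.43 in cultures A and B, and without DOX 13.32 and 13.99. In DKO-S extracts with DOX it was 11.50 and 12.80, and without DOX 14.65 and 11.59. In DT40 extracts with DOX it was 12.52 and 12.26, and without DOX 12.98 and 12.70. The ranges overlapped, and the 4 DKO-S extracts fell into the pair measured in Cy5 (12.80 and 14.65) and the pair measured in Cy3 (11.50 and 11.59). Without DOX the log2 difference of DKO-R from DT40 was 0.82 ± 0.43 (SE) with an adjusted p of 0.270 in limma. Within the same dye, MAP4K4 was higher in DKO-R than in DT40 in 7 of 8 comparisons, with differences between -0.05 and 1.35. With DOX the difference of DKO-R from DKO-S was 0.77 ± 0.43 (SE), with an adjusted p of 0.435 and a 95% interval of -0.19 to 1.73. The MAP4K4 differences moved with the culture left out. Against DT40 they were 1.15 without DKO-R culture A and 0.48 without DKO-R culture B, and against DKO-S with DOX 0.28 without culture A and 1.25 without culture B. The same-dye differences between DKO-R and DKO-S were 0.86 and 0.50 in cultures A and B with DOX, and -0.49 and 1.85 without DOX.

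DUSP1 was likewise not separated. In DKO-R extracts with DOX it was 11.28 and 11.67 in cultures A and B, and without DOX 11.58 and 12.71. In DKO-S extracts with DOX it was 10.75 and 12.76, and without DOX 12.95 and 10.97. In DT40 extracts with DOX it was 10.94 and 11.64, and without DOX 11.58 and 11.54. The highest level among extracts measured in both dyes was that of DKO-R culture B without DOX, and DKO-S again split by dye, with 12.76 and 12.95 in Cy5 and 10.75 and 10.97 in Cy3. Without DOX the log2 difference of DKO-R from DT40 was 0.58 ± 0.36 (SE), with an adjusted p of 0.351 in limma. The DUSP1 difference rested on DKO-R culture B, and was 0.02 without it and 1.15 without culture A. The same-dye differences of DUSP1 between these lines ran from -0.26 to 1.26, with 2 of 8 below 0. With DOX the difference of DKO-R from DKO-S was -0.28 ± 0.36 (SE), with an adjusted p of 0.776, and it was -0.08 without DKO-R culture A and -0.47 without culture B.

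DKO-S cells without DOX were not distinguished from DT40 cells in any of the 3 clones. The log2 difference was -0.03 for MAP2K3 (adjusted p = 0.966), 0.28 for MAP4K4 (adjusted p = 0.742) and 0.40 for DUSP1 (adjusted p = 0.544, limma). In this comparison 20.1% of 6102 clones were called. The 95% interval was widest for MAP4K4, from -0.68 to 1.24. Within the same dye MAP2K3 was lower in DKO-S in 4 of 4 comparisons, by -0.35 and -0.03 without DOX and by -0.20 and -0.72 with DOX.

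Among the other signalling clones on the DOX arrays, 6 of 7 could be tested, since DDIT3 lacked values in DKO-R. KIDINS220 was higher in DKO-R than in DT40 without DOX, by 0.96 ± 0.30 (SE) with an adjusted p of 0.0700 in limma, in the comparison with 21.5% of all clones called. It was the 1 clone of the 6 that was called in any of the 9 comparisons. Its dye effect, 1.45 ± 0.28 (SD, n = 4 pairs), was of the size seen in MAP4K4 and DUSP1. PNRC1 clone pat.pk0061.e6.f gave -0.90 ± 0.40 (SE) in the same comparison, with an adjusted p of 0.183. For the 3 MAP kinase clones the median log2 difference from DT40 was 0.58, for these 6 clones 0.20, and for all clones tested 0.04. The first of these medians is the value of DUSP1 alone. MAP4K4 was at 0.82 and MAP2K3, the 1 called, at -0.90, so the 3 clones shared no direction.

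DOX had no called effect on any of the 3 clones in any line, and few clones of the array passed these tests. In DKO-R 0% of 6490 clones were called (593 at an unadjusted p under 0.05), in DKO-S 0.164% of 6102 clones, and in DT40 0% of 6490 clones (431 at an unadjusted p under 0.05). For each pair, log2(DOX/no DOX) was averaged over both orientations, except in DKO-S, where 1 array was left for each culture. Both DKO-S pairs are fitted exactly by their mean and the dye term. The SE and p of DKO-S therefore hold no spread between DKO-S cultures and use that of the DKO-R and DT40 pairs. The same holds for DKO-S where responses are compared between lines below. MAP2K3 changed little. It was -0.12 and -0.28 in DKO-R cultures A and B, -0.12 and -0.34 in DKO-S and 0.09 and -0.02 in DT40. The mean responses of MAP2K3 were -0.20 ± 0.13 (SE) in DKO-R (adjusted p = 0.650), -0.23 ± 0.13 in DKO-S (adjusted p = 0.597) and 0.03 ± 0.13 in DT40 (adjusted p = 0.997, limma). The 95% interval in DKO-R was -0.49 to 0.09.

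MAP4K4 gave 0.13 and -1.48 in DKO-R cultures A and B, so that the cultures disagreed in sign. MAP4K4 gave -3.24 and 1.29 in DKO-S, where culture A had DOX in Cy3 and culture B had DOX in Cy5, and -0.44 and -0.45 in DT40. The fit carried a dye term for the DKO-S pairs. The mean responses of MAP4K4 were -0.68 ± 0.29 (SE) in DKO-R (adjusted p = 0.527), -0.97 ± 0.29 in DKO-S (adjusted p = 0.352) and -0.45 ± 0.29 in DT40 (adjusted p = 0.925, limma). The DKO-R mean rested on culture B, and without it the value was 0.13. The DKO-S mean of MAP4K4 is the midpoint of 2 values that lie far apart, and the dye term takes up the gap between them. Leaving out either DT40 culture did not change the DKO-R and DKO-S means, and without DKO-R culture A the DKO-R value was -1.48. Some of these fits called MAP4K4, but they leave 1 residual degree of freedom and are not read as tests. With a DT40 culture left out, calls over the whole array rose too. Without DKO-R culture A, the DKO-R arm held 1 culture, assumed to vary like the DT40 cultures, whose MAP4K4 values were nearly equal.

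DUSP1 gave -0.31 and -1.03 in DKO-R cultures A and B, both lower with DOX. The culture A array with DOX in Cy5 held the widest DUSP1 spot gap. Its spots gave centred log2(Cy5/Cy3) of 0.01 (confidence 0.48) and 1.15 (confidence 0.79). With DOX in Cy3 the culture A spots gave 1.35 and 1.04. The size of the culture A response thus depends on which spot is used. DUSP1 gave -2.21 and 1.84 in DKO-S, again opposite between the dyes, and -0.62 and 0.08 in DT40. The mean responses of DUSP1 were -0.67 ± 0.21 (SE) in DKO-R, 1.59-fold lower with DOX (adjusted p = 0.499), -0.19 ± 0.21 in DKO-S (adjusted p = 0.803) and -0.27 ± 0.21 in DT40 (adjusted p = 0.975, limma). The DKO-R value had an unadjusted p of 0.00932 in limma and a 95% interval of -1.13 to -0.21. Leaving out either DT40 culture did not change this value, and it was -1.03 without DKO-R culture A and -0.31 without DKO-R culture B. With a DT40 culture left out, DUSP1 was called in DKO-R. That fit leaves 1 residual degree of freedom, and calls over the whole array rose too, so it is not read as a test.

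**Figure D5:**
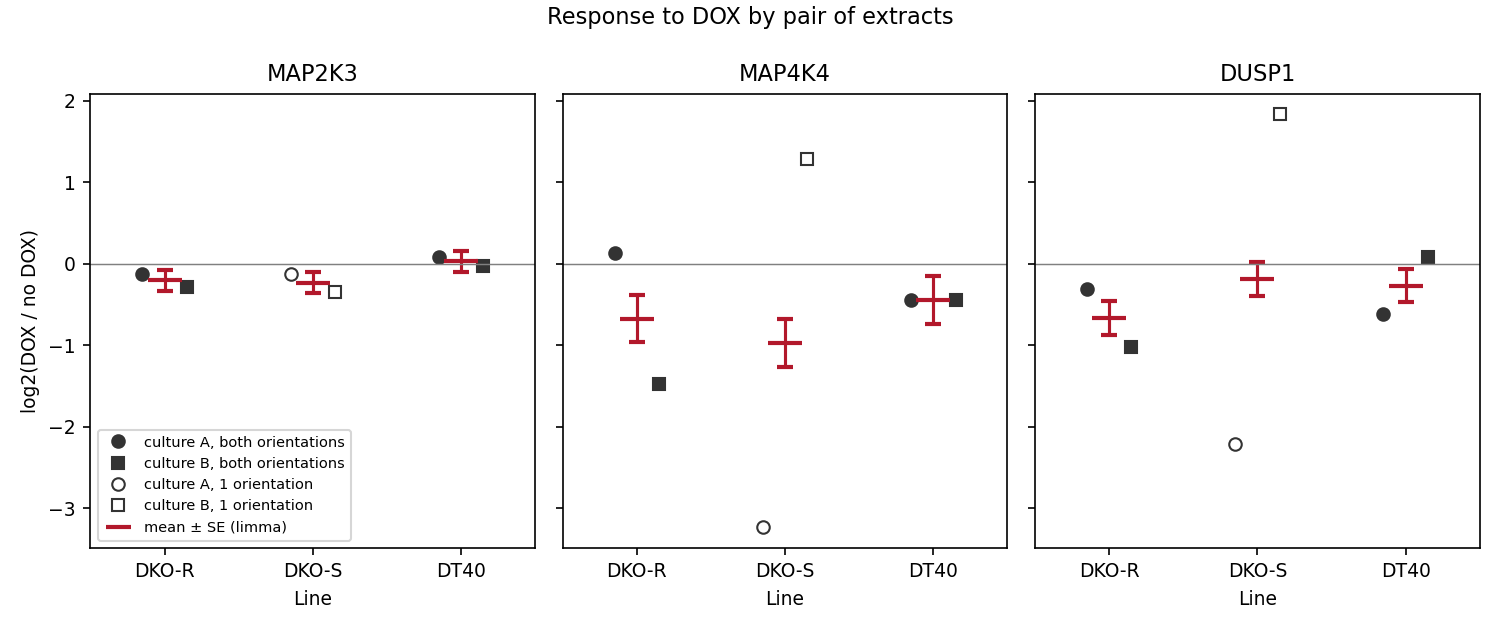
log2(DOX/no DOX) of the 3 clones by line, with 1 point for each culture (filled, both orientations; open, 1 orientation) and the mean ± SE from limma in red. The MAP2K3 points stay between -0.34 and 0.09, and the open DKO-S points of MAP4K4 (-3.24 and 1.29) and DUSP1 (-2.21 and 1.84) lie on opposite sides of 0.

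All 3 MAP kinase clones had mean DOX responses below 0 in DKO-R and in DKO-S, and 2 of 3 in DT40, with medians of -0.67, -0.23 and -0.27 beside medians over all clones of 0.01, 0.00 and 0.01. Each median of the 3 is the value of 1 clone. The 6 other signalling clones tested had medians of -0.41, -0.04 and 0.10, with 2 of the 6 above 0 in DKO-R. Mean values below 0 in DKO-R were thus not particular to the MAP kinase clones, and none of these responses was called. The clones above 0 were those of PNRC1, with dye effects of -0.14 and 0.12. KIDINS220, PSPH, CXCR4 and NFKBIE, below 0, had dye effects of 1.45, 1.08, 0.53 and 1.89. The markers NK-lysin (-0.57), CCL17 (-0.43), avidin (-0.20) and the J chain (-0.17) were also below 0 in DKO-R. A link of the DOX response with the dye effect was not tested. The responses of DKO-R and DKO-S to DOX were then tested against each other. The log2 difference, DKO-R minus DKO-S, was 0.03 for MAP2K3 (adjusted p = 0.978), 0.30 for MAP4K4 (adjusted p = 0.861) and -0.48 for DUSP1 (adjusted p = 0.662, limma), in a comparison with 0.229% of clones called. Against DT40, the DKO-R response differed by -0.23 for MAP2K3 (adjusted p = 0.858), -0.23 for MAP4K4 (adjusted p = 0.929) and -0.40 for DUSP1 (adjusted p = 0.848, limma). There 0% of clones were called, with 376 at an unadjusted p under 0.05. The DKO-S response differed from that of DT40 by -0.26 for MAP2K3 (adjusted p = 0.696), -0.53 for MAP4K4 (adjusted p = 0.722) and 0.08 for DUSP1 (adjusted p = 0.958, limma), with 0.0983% of clones called. These contrasts share the DT40 or DKO-R pairs.

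Across the 12 extracts, MAP4K4 and DUSP1 levels moved together more than either did with MAP2K3. Pearson's r was 0.75 between MAP4K4 and DUSP1, -0.38 between MAP2K3 and MAP4K4 and -0.18 between MAP2K3 and DUSP1. Without the 4 DKO-S extracts, which have 1 dye each, r between MAP4K4 and DUSP1 was 0.60 over 8 extracts. The points share arrays, cultures and dyes, so r is given as a description. Of the 43 listed clones compared, those most like MAP2K3 were the testhymin homologue (r = 0.71) and the PNRC1 clones (r = 0.62 and 0.52). Those most like MAP4K4 were TSC22D4 (r = 0.95), complement C4 (r = 0.92) and CKAP4 (r = 0.91). Those most like DUSP1 were LMO2 (r = 0.96), a vacuolar ATPase a3 subunit (r = 0.95) and CD274 (r = 0.95). Without the DKO-S extracts, r in the same order was 0.90, 0.65 and 0.47 for MAP2K3. It was 0.92, 0.78 and 0.89 for MAP4K4 and 0.94, 0.90 and 0.81 for DUSP1. Of the 6 clones most like MAP4K4 and DUSP1, TSC22D4, CKAP4, LMO2, the ATPase subunit and CD274 had a dye effect above 1. Complement C4 had 0.71. Over the list, 28 of 44 clones with a value reached 1. The clones like MAP2K3 had dye effects between -0.14 and 0.12. Over all 6101 clones compared, the 2 most like MAP2K3 were DT40subNB_14D5 (r = 0.94) and DT40subNB_17C11 (r = 0.92). The 2 most like DUSP1 were pat.pk0066.f8 (r = 0.97) and pat.pk0033.a11 (r = 0.97). TSC22D4 was also the clone of the whole array most like MAP4K4, followed by pat.pk0035.f5 (r = 0.94).

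The identity of the cells could be checked only through listed clones. The immunoglobulin J chain was measured in all 12 extracts, and so were the clones named for other cell types, NK-lysin (10.44 to 12.97), CCL17 (10.52 to 12.90) and avidin (11.62 to 13.91). NK-lysin, CCL17 and avidin had dye effects of 1.58, 1.40 and 1.08, beside 1.81 for MAP4K4 and 1.11 for DUSP1. NK-lysin and avidin were called in none of the 3 comparisons between lines. Their dye effects ranked 16, 27 and 53 of 6490 clones. The samples are the cultured pre-B cell line DT40 and lines derived from it. Signal of these clones is therefore not read as presence of other cell types. In bulk RNA, fewer cells with a transcript and less of it per cell cannot be told apart.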

How the data were processed

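RNA of 14 two-colour EST arrays was analysed from scanner tables deposited by the authors, quantified with BlueFuse for Microarrays 1.1 (build 2765, per the labels). Those deposited tables give Cy3 and Cy5 intensity per spot and a confidence as a fraction; a deposited table of log2 ratios per spot, whose normalisation is not given, served as an alternative. Spots of confidence under 0.30 and control spots were left out. For the DOX tests, log2(Cy5/Cy3) was centred on each array's median, averaged per clone and pair and fitted in limma 3.58.1 (R 4.3.3) with 1 mean per comparison and a dye term. For levels, intensities of the 10 strong DOX arrays were normalised by loess (span 0.3) and Aquantile, averaged per extract and fitted in limma with 6 groups and a dye term. Benjamini-Hochberg adjusted p under 0.15, a limit taken from the study's methods, was called. Both steps were tested on simulated data with independent noise. These data held no correlation between extracts of a culture and no difference between array sets, so that test does not cover either. In the simulated DOX data a DKO-S array had less noise than other arrays, so that pairs of 1 and 2 arrays spread equally. The extra noise of pairs with 1 array is therefore not covered. Residual degrees of freedom were 2 and 5, so the number of arrays limits the precision. The 2 of the DOX fit came from the DKO-R and DT40 pairs. The labels call cultures A and B biological replicates. Culture letters did not pair the extracts of different lines. Deviations from group means correlated between -0.17 and 0.18 across groups on different arrays, with 1 of 12 correlations over 0.1. Between DOX and no DOX extracts, which shared arrays, they correlated at 0.61 in DKO-R, 0.22 in DKO-S and 0.68 in DT40. The fit of levels treated these extracts as independent, so its 5 residual degrees of freedom overstate the information. It also gave DKO-S extracts, measured on 1 array, the same weight as extracts measured on 2. Named clones are the 3 MAP kinase clones, 7 signalling clones, 4 cell type markers and, for each MAP kinase clone, the 3 listed and 2 other clones most like it. The members and lists were chosen with earlier results of these data known. Alternatives covered normalisation, confidence, threshold, blocks and left-out cultures.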

Additional observations from a re-analysis of the deposited data

How the results depend on the processing

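Counts of called clones moved with the settings, while most values of MAP2K3, MAP4K4 and DUSP1 kept their direction. The DOX counts were 0 in DKO-R, 10 in DKO-S and 0 in DT40, with 14 for DKO-R minus DKO-S, 0 for DKO-R minus DT40 and 6 for DKO-S minus DT40. Loess within arrays gave 1 in DKO-R and 9 for DKO-R minus DKO-S. Centring by printed block gave 1 in DKO-R, 28 in DKO-S, 49 for DKO-R minus DKO-S and 15 for DKO-S minus DT40. No confidence filter gave 127 in DKO-S and 70 for DKO-R minus DKO-S. A confidence of 0.60 gave 0 in DKO-S and in both DKO-S contrasts. The deposited log2 table gave 1 in DKO-R, 190 in DKO-S, 2 in DT40, 134 for DKO-R minus DKO-S, 4 for DKO-R minus DT40 and 87 for DKO-S minus DT40. Requiring both orientations on all arrays left 160 clones, none of the 3 among them, and 0 calls in DKO-S and in both DKO-S contrasts. A limit of 0.05 gave 1 in DKO-S, 3 for DKO-R minus DKO-S and 0 for DKO-S minus DT40. The replicate block (culture as a block) gave 0 in DKO-S, 3 for DKO-R minus DKO-S and 0 for DKO-S minus DT40. It changed no call of the 3 clones. Leaving out a DT40 or DKO-R culture gave 0 to 125 calls in DKO-R, 9 to 146 in DKO-S, 0 to 40 in DT40, 0 to 162 for DKO-R minus DKO-S, 0 to 17 for DKO-R minus DT40 and 2 to 86 for DKO-S minus DT40. A DKO-S culture could not be left out, because the dye term needs both.

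The line counts were 1393 for DKO-R against DT40, 1227 for DKO-S against DT40 and 380 for DKO-R against DKO-S with DOX. Without a confidence filter the comparisons with DT40 gave 3056 for DKO-R and 2603 for DKO-S. A confidence of 0.60 gave 369, 333 and 52, a limit of 0.05 gave 613, 558 and 106, and both dyes on all arrays gave 1, 5 and 1 of 160 clones, in that order of comparisons. Leaving out a culture gave 82 to 267, 71 to 770 and 15 to 119. With culture as a random block (correlation 0.79), MAP2K3 in DKO-R against DKO-S with DOX reached an adjusted p of 0.144 in limma.

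Reversals were mostly near 0, and the cause was not tested. The MAP2K3 response in DT40 was -0.0092 with block centring, -0.0035 with the deposited table and -0.024 to 0.086 without a DT40 culture. MAP2K3 in DKO-R minus DKO-S was -0.032 without a filter, -0.068 at 0.60, -0.14 with the deposited table and -0.049 to 0.11 without a DKO-R culture. MAP2K3 in DKO-S against DT40 was 0.11 without a filter and -0.22 to 0.16 without a DT40 culture. Without a DT40 culture, DUSP1 was -0.62 to 0.083 in DT40 and -0.27 to 0.43 in DKO-S minus DT40. Without a DKO-R culture, MAP4K4 was -1.48 to 0.13 in DKO-R, -0.51 to 1.103 in DKO-R minus DKO-S and -1.04 to 0.58 in DKO-R minus DT40.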
